A study of Mus musculus with 30 samples.

Results

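The E2F transcription factors and the retinoblastoma, or pocket, proteins decide when a cell enters S phase. Members of both families, 10 in all, were followed: the activators E2f1 and E2f2, the canonical repressors E2f4, E2f5 and E2f6, the atypical repressors E2f7 and E2f8, and the pocket protein genes Rb1, Rbl1 (p107) and Rbl2 (p130). They were chosen by name, and their Ensembl identifiers were matched to symbols in the gene count table. All 10 were found among its 78334 identifiers, and all 10 passed the filter on low counts in both sequencing runs (15350 genes kept in run 2, 15103 in run 3).

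RNA was sequenced from 30 libraries in 9 groups, all labelled as mouse aortic smooth muscle cells. The study asked how the long noncoding RNA CASC15 affects the growth of these cells. Per the labels' protocols, cells were starved of serum for 48 h, and treatments lasted 24 h. The growth protocol names rat cells beside mouse cells, and no genotype, strain or age is given here for the source animals.

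Run 2 held 2 libraries of cells with a control GapmeR (an antisense oligonucleotide that directs cleavage of the RNA it binds) and 2 with knockdown of total CASC15. It also held 3 libraries with the overexpression control and 3 with overexpression of total CASC15. None of the run 2 cells received angiotensin II or PDGF-BB. Run 3 held 5 groups of 4 libraries. Cells with a knockdown control were untreated, given angiotensin II (10 ng/ml), or given PDGF-BB (10 to 30 ng/ml, the dose of each library not being given), and cells with knockdown of long CASC15 were untreated or given angiotensin II. The number after CASC goes up from one replicate to the next in several titles, and the short library code decided the group. Each library also carries a batch label, P16 to P19, with at most 1 library of a group in each batch. P16 occurs in run 3 alone, and P19 is absent from the GapmeR control and total knockdown groups of run 2. Nothing in the labels says what the batch label stands for or that libraries of a group came from separate animals, so p-values measure the spread between these libraries, which may be technical.

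In quiescent cells, pocket proteins bind E2F proteins and hold E2F target genes low, and Rbl2 with E2f4 and the MuvB proteins forms the DREAM complex on cell cycle promoters. Mitogens such as PDGF-BB raise the activity of cyclin-dependent kinases, which phosphorylate pocket proteins and release E2F. Several family members (E2f1, E2f2, E2f7, E2f8 and Rbl1) are themselves known E2F target genes, while E2f4, E2f5 and Rb1 vary less through the cycle.

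Promoter sequences are shown for 4 members that the results below turn on: Rbl1, E2f8 and E2f7, the members with the steepest rises with PDGF-BB, and Rbl2, the member called lower. They come from RefSeq (GRCm38.p6), read 5′ to 3′ on the strand of the gene and ending at the base before the annotated start. Capitals mark exact matches, on either strand, to an E2F motif (TTTCCCGC, TTTGGCGC, TTTCGCGC or TTTGCCGC) or to TTTGAA, the core of the cell cycle homology region (CHR) that MuvB complexes bind.
Rbl1, chr2:157204535-157204634, minus strand: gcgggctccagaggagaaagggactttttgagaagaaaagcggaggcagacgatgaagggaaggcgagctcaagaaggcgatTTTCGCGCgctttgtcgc
E2f8, chr7:48881597-48881696, minus strand: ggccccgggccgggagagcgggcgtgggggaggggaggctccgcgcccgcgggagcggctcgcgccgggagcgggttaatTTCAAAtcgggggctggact
E2f7, chr10:110745189-110745438, plus strand: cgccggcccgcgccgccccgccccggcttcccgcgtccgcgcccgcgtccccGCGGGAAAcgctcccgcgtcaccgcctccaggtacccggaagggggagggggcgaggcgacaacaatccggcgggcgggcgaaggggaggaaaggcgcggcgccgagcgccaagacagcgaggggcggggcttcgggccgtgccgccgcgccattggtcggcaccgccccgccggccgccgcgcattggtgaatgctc
Rbl2, chr8:91069807-91070056, plus strand: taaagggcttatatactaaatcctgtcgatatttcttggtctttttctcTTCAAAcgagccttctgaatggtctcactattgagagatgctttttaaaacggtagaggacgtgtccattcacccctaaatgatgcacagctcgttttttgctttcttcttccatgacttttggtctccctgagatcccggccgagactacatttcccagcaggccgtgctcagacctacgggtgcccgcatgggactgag

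The E2F match of Rbl1 lies 18 to 11 bases before the start site, and that of E2f7 lies 198 to 191 bases before it on the opposite strand. In E2f8 the CHR match, also on the opposite strand, lies 20 to 15 bases before the start, and in Rbl2 it lies 201 to 196 bases before it. RefSeq windows of 300 bases were held for 7 members, with a pair of windows for E2f2. The first E2f2 window held TTTGGCGC 40 to 47 bases after its start, and the second held a CHR match 31 to 26 bases before its own. No match to either motif was found in the windows of E2f1 and E2f6. The E2f1 window (chr2:154569377-154569676, minus strand) lay inside the annotated gene, whose start is at 154569892. Bases before that start were therefore not searched for E2f1. The second E2f2 window (136180532 to 136180831) also lay inside its gene, which starts at 136172394. Of 32851 promoter windows of that length, 2.26% held an E2F match and 17.9% a CHR match. Among the gene lists used below, 10 of 22 G1/S target genes with a window held the E2F motif in any of their windows. The CHR motif was held by 12 of 17 G2/M target genes, counted likewise. These counts are of genes, while the shares above are of windows. A match is a description of letters and does not show that a protein binds there.

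The level of each member was compared per length, as counts divided by the union exon length of the GENCODE annotation and scaled to a fixed sum per library (TPM, the usual per-length unit). In the untreated control cells of run 3, the highest levels were those of Rbl2 (38.0 ± 2.6 TPM, SD, n = 4) and E2f4 (37.5 ± 4.7), whose ranges overlapped. E2f6 followed at 28.6 ± 1.5 TPM, then Rb1 at 22.9 ± 0.54, E2f5 at 21.5 ± 2.3 and E2f1 at 17.3 ± 1.4. The ranges of Rb1 and E2f5 overlapped, and so did those of E2f5 and E2f1. Lower levels were found for Rbl1 (7.09 ± 0.85), E2f2 (3.60 ± 0.58), E2f7 (1.61 ± 0.52) and E2f8 (0.590 ± 0.43), of which E2f7 and E2f8 overlapped. With the longest transcript as length, E2f6 (40.9 ± 2.1) stood above E2f4 (35.2 ± 4.4), and the order of the other members was the same. The shares that follow are of the summed per-length RNA of the 7 E2F genes followed, not of all E2F RNA in the cells. In starved control cells E2f4, E2f5 and E2f6 made up 79.1% ± 1.9 of that sum, E2f1 and E2f2 18.9% ± 1.0, and E2f7 and E2f8 2.00% ± 0.87. With the longest transcript in place of the union of exons, the share of E2f1 and E2f2 was 15.8% ± 0.97.

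The total count of a library was 18007184 to 21881948 in run 2 and 15771489 to 30362053 in run 3. The mouse gene 2610307P16Rik, read here as CASC15 although no table used here pairs these names, checked the labels. It was at 604 to 916 CPM (read counts scaled to the size of the library) with total overexpression and at 4.03 to 8.69 in its controls. Long knockdown lowered it from 4.94 to 6.01 CPM in untreated controls to 2.15 to 3.48. The libraries labelled total knockdown held 8.29 and 9.73 CPM against 6.37 and 7.66 in their controls, so the label of that group is not borne out by this gene. Of 10 smooth muscle markers, Cnn1 was at or below 3 counts in every library of 7 of the 9 groups, and Myh11 in those of untreated and PDGF-BB-treated control cells of run 3. The summed smooth muscle markers ranged from 667 to 1220 CPM over the 30 libraries, most of it from Cald1 and Acta2, and the contractile markers that define mature smooth muscle, Myh11 and Cnn1, were near absent in the untreated controls. Endothelial markers summed to at most 9.99 CPM, with Cdh5 and Cldn5 at or below 3 counts in every library.

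Control cells of run 3 show the response to PDGF-BB. Of the 10 members, 7 rose and 1 fell, in a comparison that called 43.6% of all 15103 genes (23.6% higher and 20% lower). Calls here and in all that follows came from edgeR (quasi-likelihood test), with p-values adjusted over all genes tested by the method of Benjamini and Hochberg, at a threshold of 0.05. In bulk RNA, a change in the share of cells in cycle and a change of RNA per cell cannot be told apart. Fitting the batch label as a block changed no member's call here.

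Both activators rose. E2f1, a main driver of S phase entry, was at 13.8, 14.1, 15.1 and 17.1 CPM in the untreated libraries of P16 to P19 and at 26.5, 27.9, 28.8 and 33.8 with PDGF-BB. These groups did not overlap, and the change on the log2 scale (log2 change) was 0.96 (SE 0.18, adjusted p = 0.000299). E2f2, a close relative of E2f1, went from 5.04, 5.74, 4.59 and 4.03 CPM to 17.3, 16.1, 17.6 and 19.4. Every treated library was above every untreated one, with a log2 change of 1.86 (SE 0.26, adjusted p = 1.15e-05).

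The canonical repressors moved less and not together. E2f6, which represses through Polycomb-type complexes and without pocket proteins, was at 47.6, 43.2, 43.2 and 44.9 CPM untreated and at 61.9, 58.1, 58.9 and 70.5 with PDGF-BB. It rose by a log2 change of 0.48 (SE 0.074, adjusted p = 3.06e-05) with no overlap. E2f4, the main E2F of the DREAM complex, was at 21.7 to 28.5 CPM untreated and at 29.8 to 34.0 treated, a log2 change of 0.35 (SE 0.088, adjusted p = 0.00291). E2f5, which pairs with Rbl2, was at 9.23 to 12.4 CPM untreated and 7.34 to 9.82 treated. Its groups overlapped, and its log2 change of -0.28 (SE 0.13) did not pass the test (adjusted p = 0.0961).

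The steepest rises were those of the atypical repressors, which bind DNA without a DP partner and switch off E2F targets late in S phase. E2f8 was at 0.462, 0.325, 0.997 and 1.79 CPM untreated, from 6 to 53 reads, and at 19.4, 19.8, 16.01 and 21.9 with PDGF-BB. Its log2 change was 4.36 (SE 0.58, adjusted p = 9.82e-06), a 21.5-fold ratio of mean CPM. E2f7 went from 3.57, 2.38, 4.69 and 5.45 CPM to 31.1, 31.6, 34.1 and 33.9. The lowest treated library was above the highest untreated library for both genes, and E2f7 had a log2 change of 3.01 (SE 0.48, adjusted p = 8.15e-05).

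Each pocket protein gene behaved differently. Rbl1, the pocket protein of cycling cells and the gene with the E2F match nearest its start, went from 12.3, 10.7, 10.2 and 13.7 CPM to 56.4, 55.8, 62.1 and 70.0. It rose with a log2 change of 2.37 (SE 0.15, adjusted p = 1.99e-10), the smallest adjusted p of the 10. Within batches the log2 ratio of Rbl1 ranged from 2.15 to 2.55, and that of E2f8 from 3.29 to 4.62. Rb1, the founding tumour suppressor of the family, was at 36.5 to 39.3 CPM untreated and 35.4 to 42.6 treated, with overlapping groups and a log2 change of 0.05 (SE 0.082, adjusted p = 0.687). Rbl2, the pocket protein of resting cells, was at 79.7, 73.3, 75.5 and 88.8 CPM untreated and at 64.8, 68.2, 69.7 and 71.2 treated. It fell by 0.21 on the log2 scale (SE 0.070, adjusted p = 0.0185), and without the untreated P19 library it did not pass (adjusted p = 0.129). Per length, Rbl1 was 10.4% ± 0.75 of pocket protein RNA in untreated cells and 39.5% ± 2.6 in treated cells (SD, n = 4 each), while Rbl2 went from 55.9% ± 0.84 to 35.2% ± 0.60. Rbl1 was the least abundant pocket protein RNA in each untreated library. With PDGF-BB its order against Rbl2 turned on the length used: Rbl1 was above Rbl2 in each treated library by union exon length, and below it in each by longest transcript (35.9% ± 2.5 against 39.9% ± 0.61), as in mean CPM (61.1 against 68.5).

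**Figure D1:**
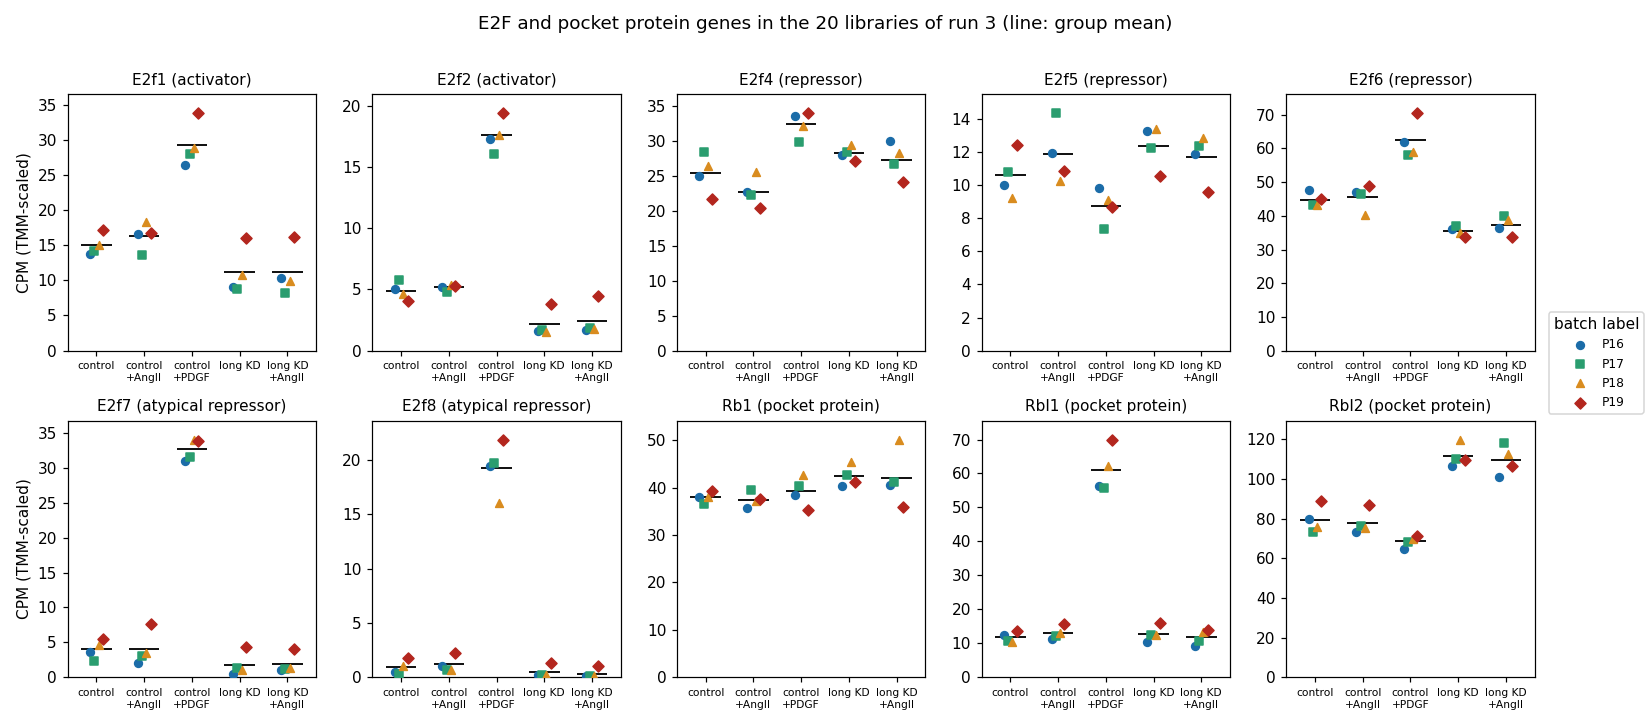
CPM (linear axis from 0) of each of the 10 genes in the 20 libraries of run 3, by group, with colours and shapes for the batch label and a line at the group mean. The PDGF-BB libraries stand above all others for E2f1, E2f2, E2f7, E2f8 and Rbl1, and the long knockdown libraries stand above all others for Rbl2.

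Partners and targets of the family were read from lists of named genes. Of 8 tested DP and MuvB partner genes, 5 rose with PDGF-BB and none fell. These were Mybl2 (log2 change 3.24, SE 0.23), which joins MuvB in S phase, Foxm1 (2.96, SE 0.25), which joins it in G2, the DP gene Tfdp1 (1.09, SE 0.095), the MuvB subunit Lin9 (1.04, SE 0.11) and the histone-binding gene Rbbp4 (0.17, SE 0.063). Among 14 genes of pocket protein kinases and their inhibitors, 7 rose and 1 fell. The cyclin E genes Ccne1 (3.22, SE 0.47) and Ccne2 (2.52, SE 0.22) rose most, and the inhibitor gene Cdkn1c fell by 1.75 on the log2 scale (SE 0.29). The cyclin D1 gene Ccnd1 did not pass the test (log2 change 1.3, SE 0.53, adjusted p = 0.0577) and did with the batch as a block (adjusted p = 0.000226). The CDK inhibitor genes Cdkn2c (1.67, SE 0.12) and Cdkn2d (1.84, SE 0.15) also rose.

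All 26 G1/S target genes and all 20 G2/M target genes rose. The median log2 change was 2.71 for the G1/S list and 3.46 for the G2/M list, against -0.02 over all genes tested. Examples from the G1/S list are the licensing gene Cdc6 (4.34, SE 0.55), the helicase gene Mcm5 (3.66, SE 0.47) and the nucleotide synthesis gene Rrm2 (3.74, SE 0.41). From the G2/M list, the mitotic kinase gene Plk1 rose by a log2 change of 3.71 (SE 0.37) and Cdk1 by 3.22 (SE 0.37). Among the members, E2f8 at 4.36 was just above the highest of these target genes (Cdc6), E2f7 at 3.01 lay within the G1/S list and below every G2/M gene, and E2f1 at 0.96 was below every gene of both lists. The smooth muscle markers Acta2 and Cald1 fell and Smtn rose in the same comparison, and the summed smooth muscle markers were 723 to 819 CPM with PDGF-BB against 926 to 1140 without. The endothelial marker Pecam1 fell by 1.65 on the log2 scale (adjusted p = 0.0397), with the endothelial list at 0.356 to 1.05 CPM against 1.25 to 2.65. The part of a change in cell state in these results was not tested.

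Long CASC15 knockdown was compared with the control at no treatment and, separately, with angiotensin II. The untreated comparison shares its control libraries with the PDGF-BB comparison, so the values of both are given side by side and no agreement between them is read. Without treatment, 25% of all genes were called (12.3% higher and 12.8% lower). Of the 10 members, Rbl2 rose, E2f2 and E2f6 fell, and 7 did not pass. With angiotensin II, 26.7% of all genes were called (13.4% higher and 13.3% lower). There Rbl2 and E2f4 rose, and E2f1, E2f2 and E2f6 fell. The members' shares called, 3 of 10 and 5 of 10, stand beside those backgrounds and are too few genes to set apart from them.

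Batch pairs the libraries of this run, and the fit with the batch as a block called more genes in both knockdown comparisons. It called 5 members at no treatment, where 40.6% of all genes were called, and 7 with angiotensin II, where 41.3% were. The members gained were E2f1 (log2 change -0.46, adjusted p = 0.00323) and E2f7 (-1.27, adjusted p = 0.0173) at no treatment. With angiotensin II they were E2f7 (-1.10, adjusted p = 0.0362) and E2f8 (-1.80, adjusted p = 0.014). Without the block, single libraries of P19 moved these last values most: E2f7 was at -0.59 without the control library and -1.76 without the knockdown library, and E2f8 at -1.22 and -3.41. No member called without the block was lost with it.

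Rbl2 rose in both settings. It was at 106, 110, 120 and 110 CPM in untreated long knockdown libraries of P16 to P19, against 79.7, 73.3, 75.5 and 88.8 in the controls. Every knockdown library was above every control. The log2 change was 0.49 (SE 0.070, adjusted p = 3.14e-05). With angiotensin II, Rbl2 was at 101, 118, 113 and 107 CPM against 73.4, 76.3, 75.0 and 86.9, again without overlap, a log2 change of 0.49 (SE 0.070, adjusted p = 2.95e-05). Within batches the log2 ratio ranged from 0.30 to 0.66 untreated and from 0.29 to 0.63 with angiotensin II. The gene Aktip lies on the opposite strand and overlaps Rbl2 (GRCm38 chr8:91070057-91123844, plus strand), strandedness is not given in the sources used here, and 20 of 30 Rbl2 values were not whole numbers. Aktip, looked at after these values were seen, changed with knockdown by 0.38 (SE 0.088, adjusted p = 0.00336) untreated and by 0.25 (SE 0.088, adjusted p = 0.0375) with angiotensin II, and with PDGF-BB by -0.30 (SE 0.089, adjusted p = 0.0102). Reads of this pair may be shared, and how far they were was not tested.

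E2f6 fell in both settings. Untreated knockdown libraries held 36.1, 37.0, 35.0 and 33.8 CPM against 47.6, 43.2, 43.2 and 44.9 in the controls, and the groups did not overlap. The log2 change was -0.34 (SE 0.075, adjusted p = 0.00253). With angiotensin II the knockdown libraries held 36.5, 40.0, 38.7 and 33.8 CPM and the controls 47.2, 46.6, 40.1 and 49.0, with a log2 change of -0.30 (SE 0.075, adjusted p = 0.00637). Within batches the log2 ratio of E2f6 ranged from -0.40 to -0.22 untreated and from -0.53 to -0.05 with angiotensin II. Each ratio compares single libraries, and whether the fall differed between batches was not tested. E2f1, E2f2, E2f6, E2f7 and E2f8 were lower, and Rbl2 higher, in all 4 batches of both comparisons.

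E2f2 also fell, but unevenly across batches. It was at 1.59, 1.67, 1.52 and 3.77 CPM in untreated knockdown libraries against 5.04, 5.74, 4.59 and 4.03 in the controls, a log2 change of -1.18 (SE 0.29, adjusted p = 0.00476). The knockdown library of P19 was far above the other 3, and its within-batch log2 ratio was -0.09, against -1.52 in the batch with the steepest fall. With angiotensin II the values were 1.64, 1.83, 1.80 and 4.48 CPM against 5.19, 4.80, 5.37 and 5.24, a log2 change of -1.07 (SE 0.29, adjusted p = 0.00854).

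In E2f1, E2f7 and E2f8 the P19 knockdown library was again the highest of its group. E2f1 was at 9.06, 8.79, 10.7 and 15.97 CPM in untreated knockdown libraries, where the P19 library lay within the control range of 13.8 to 17.1. The log2 change of -0.44 (SE 0.19) did not pass untreated (adjusted p = 0.0958). With angiotensin II E2f1 was at 10.4, 8.20, 9.93 and 16.2 CPM against 13.6 to 18.3 and passed (log2 change -0.54, SE 0.19, adjusted p = 0.0381). That call was lost when any of 6 single libraries was left out, all but the control P17 and knockdown P19 libraries, with adjusted p from 0.0741 to 0.134.

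E2f7 was at 0.514, 1.39, 1.03 and 4.30 CPM in untreated knockdown libraries against 2.38 to 5.45 in the controls, a log2 change of -1.17 (SE 0.53, adjusted p = 0.118). E2f8 was at 0.234, 0.167, 0.217 and 1.27 CPM against 0.325 to 1.79, a log2 change of -0.98 (SE 0.71, adjusted p = 0.342). On leaving out single libraries, these untreated log2 changes ran from -2.07 to -0.86 for E2f7 and from -2.14 to -0.34 for E2f8. In the first 3 batches of the knockdown groups E2f8 rested on 2 to 5 reads a library, so depth limits what can be said of it. Without batch P19, 7 members passed untreated, where 40% of 15159 genes did, and 8 with angiotensin II, where 39.9% did. Both sets held E2f1, E2f2, E2f6, E2f7, E2f8 and Rbl2, and the set without treatment also held E2f5 (log2 change 0.37, adjusted p = 0.0257). The set with angiotensin II also held E2f4 and Rb1. E2f7 was then at -1.90 (adjusted p = 9.13e-06) untreated and -1.28 (adjusted p = 0.00084) with angiotensin II, and E2f8 at -1.50 (adjusted p = 0.00797) and -2.90 (adjusted p = 3.03e-05). Over all 7 groups that hold a P19 library, that library was the highest of its group in 7 for E2f8 and Rbl1, in 6 for E2f1 and E2f7, and in 5 for E2f2. The part of the batch in these results was not tested beyond these fits.

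The other members moved little with long knockdown. E2f4 was at 27.1 to 29.5 CPM untreated against 21.7 to 28.5, with a log2 change of 0.16 (SE 0.089, adjusted p = 0.212). With angiotensin II it was at 24.1 to 29.9 CPM against 20.3 to 25.5 and passed (0.26, SE 0.090, adjusted p = 0.0352), a call lost without any of 6 single libraries, all but the control P18 and knockdown P19 libraries. Rb1 was at 40.4 to 45.4 CPM untreated against 36.5 to 39.3. Its groups did not overlap, yet the log2 change of 0.16 (SE 0.082) did not pass (adjusted p = 0.164), and with angiotensin II it was 0.16 (SE 0.082, adjusted p = 0.149). Without batch P19, Rb1 passed with angiotensin II. Rbl1 was at 10.3 to 16.03 CPM against 10.2 to 13.7 (log2 change 0.12, SE 0.15, adjusted p = 0.599), and with angiotensin II its log2 change was -0.16 (SE 0.15, adjusted p = 0.462), so no change with knockdown was detectable at this spread in either setting. E2f5 was at 10.6 to 13.4 CPM against 9.23 to 12.4 (0.22, SE 0.13, adjusted p = 0.24), and its log2 change with angiotensin II was -0.02 (SE 0.13, adjusted p = 0.916). Rb1 overlaps Lpar6 on the opposite strand, and Lpar6 fell by 0.52 on the log2 scale (SE 0.084, adjusted p = 0.000136) in untreated knockdown cells. What shared reads do to Rb1 was not tested.

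**Figure D2:**
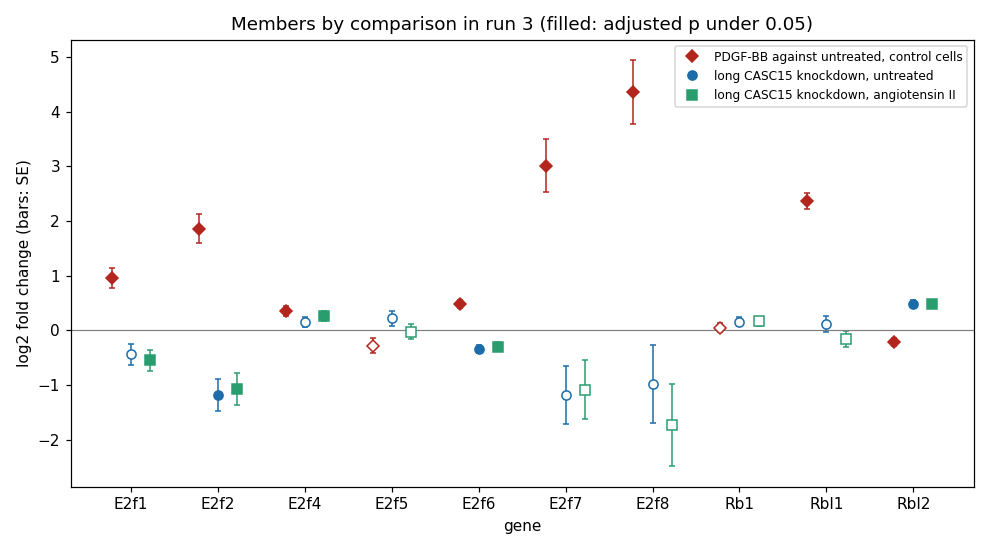
Log2 fold change with its standard error for each gene in the PDGF-BB comparison and in long CASC15 knockdown without and with angiotensin II, filled where the adjusted p was under 0.05. The first pair of comparisons shares its untreated control libraries. PDGF-BB values run from -0.28 for E2f5 to 4.36 for E2f8, and knockdown values for Rbl2 are 0.49 in both settings.

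In the lists, long knockdown left most G1/S target genes uncalled, as it did most of all 15103 genes tested. At no treatment Mcm7 rose (log2 change 0.26, SE 0.070) and Rrm2 fell (-1.37, SE 0.46), and 24 of 26 did not pass, with a list median of -0.14. The block called 2 higher and 8 lower, and 3022 higher and 3104 lower of all 15103 genes. With angiotensin II the median of the G1/S list was -0.28, with Mcm7 higher and Tyms lower, and the block called 1 higher and 12 lower. Of all genes the block called 3083 higher and 3155 lower there. In the G2/M list Cdc25c (-2.02, SE 0.52) and Top2a (-1.33, SE 0.43) fell and 18 of 20 did not pass. All 20 had a log2 change below 0, the list median was -1.36 against 0.02 over all genes, and the block called 18 lower. With angiotensin II, 5 G2/M genes fell, and 20 with the block. Foxm1 fell in both settings (-1.10, SE 0.26, and -1.01, SE 0.26), and Tfdp1 did too (-0.31, SE 0.095, and -0.45, SE 0.095), while the DP gene Tfdp2 rose (0.32, SE 0.063, and 0.26, SE 0.063). Of 8 tested DP and MuvB partner genes, 2 rose and 2 fell untreated, and 2 rose and 3 fell with angiotensin II.

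Among kinase genes, Cdk6 fell by 0.69 and 0.80 on the log2 scale (SE 0.094 each) and the cyclin D3 gene Ccnd3 by 0.64 and 0.63 (SE 0.097 each). The inhibitor gene Cdkn2c rose in both settings (0.50, SE 0.12, and 0.46, SE 0.12). Of 14 genes in that list, 2 rose and 5 fell untreated, and 1 rose and 3 fell with angiotensin II. With the block these counts were 2 higher and 8 lower, and 2 higher and 9 lower. The smooth muscle markers Myl9 and Myocd fell in both comparisons and Smtn and Myh11 rose. The endothelial marker Vwf, 1 of 2 tested of the 6 on its list, rose in both. It rose from control means of 0.144 CPM untreated and 0.0771 with angiotensin II. In those angiotensin II controls it was at or below 3 counts in every library. The endothelial list was at 1.91 to 3.78 CPM in untreated knockdown cells against 1.25 to 2.65 in controls, and at 2.24 to 4.16 against 0.863 to 2.22 with angiotensin II. Leukocyte markers summed to 11.9 to 14.7 CPM with knockdown and 10.3 to 14.7 in controls, both untreated, and to 12.2 to 16.2 against 10.1 to 12.6 with angiotensin II, where Cd14 rose (log2 change 0.39, SE 0.13, adjusted p = 0.03). The part of other cells in these results was not tested.

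Angiotensin II called no gene in control cells (0% of 15103), none in long knockdown cells (0%), and no gene differed in its response between them (0%). In edgeR's test, 156, 174 and 166 genes had an unadjusted p under 0.05 in these comparisons, and DESeq2 called 1, 0 and 2. No member had an unadjusted p under 0.05 in any of the 3. In control cells the members' log2 changes ran from -0.16 for E2f4 to 0.31 for E2f8, and in knockdown cells from -0.45 for E2f8 to 0.20 for E2f2. The test of the difference in response ran from -0.75 for E2f8 (SE 1.06) to 0.11 for E2f4 (SE 0.13). For Rbl2 the difference was 0.00 (SE 0.098), so a change of the knockdown effect by angiotensin II was not detectable at that error.

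Run 2 gave no member's call at all in the fit without a block. Total knockdown called 2.07% of 15350 genes and 0 of 10 members, and total overexpression called 1.65% and 0 of 10. At an unadjusted p under 0.05 the first comparison held 1 member, Rb1, and the second held E2f4, E2f5, Rb1 and Rbl1. Over all genes that threshold was passed by 12.9% and 15%, so 1 of 10 is near the background. DESeq2 called no member in either comparison. Batch pairs the libraries here too. With the batch as a block, 14.4% of genes were called for total knockdown with 3 members, and 17.7% for overexpression with 4 members.

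In total knockdown, E2f7 was at 2.01 and 2.64 CPM in P17 and P18, against 0.445 and 1.04 in the control GapmeR libraries. It was called with the block (log2 change 1.67, SE 0.36, adjusted p = 0.0105) and not without it (adjusted p = 0.712). Rb1 was at 44.2 and 59.3 CPM against 36.7 and 40.4 (0.42, SE 0.10, adjusted p = 0.0202 with the block). Rbl1 was at 8.37 and 11.3 CPM against 5.93 and 6.17 (0.68, SE 0.17, adjusted p = 0.0229 with the block). For these 3 genes the libraries labelled total knockdown were above the controls in both batches. As given above, 2610307P16Rik does not bear out that label. E2f1 was lower in both, at 9.88 and 10.7 CPM against 13.5 and 14.3 (adjusted p = 0.0543 with the block). E2f8 rested on 3 reads in each control and on 1 and 20 in the knockdown libraries, and no fold is drawn from it. Leukocyte markers moved with this comparison: they summed to 27.3 and 31.8 CPM in the total knockdown libraries and to 8.59 and 10.2 in the controls, with Cd68 and Csf1r called and Ptprc, Adgre1 and Tyrobp at or below 3 counts. Endothelial markers summed to 6.02 and 9.99 CPM against 2.81 and 3.90, and Pecam1 and Vwf passed with the block (adjusted p = 0.0261 and 0.0163). Of the smooth muscle markers Myh11 was higher (log2 change 2.47, SE 0.43, adjusted p = 0.0239), and Des passed as higher with the block alone (2.79, SE 0.52, adjusted p = 0.0046). The part of the cells they mark in these results was not tested.

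In total overexpression, Rbl1 was at 19.9, 28.2 and 30.3 CPM in P17 to P19 against 10.6, 14.8 and 22.2 in the overexpression control, and E2f4 at 38.0, 36.0 and 48.2 against 24.3, 28.5 and 37.9. Both were higher in all 3 batches. With the block Rbl1 passed (log2 change 0.76, SE 0.13, adjusted p = 0.00262) and so did E2f4 (0.44, SE 0.089, adjusted p = 0.00632). Rb1 was at 26.1, 29.9 and 29.1 CPM against 37.6, 41.9 and 36.5 and E2f5 at 8.44, 7.84 and 8.37 against 12.4, 10.7 and 11.6, without overlap in either gene. They were lower in all 3 batches, and with the block Rb1 (-0.45, SE 0.087, adjusted p = 0.00553) and E2f5 (-0.50, SE 0.13, adjusted p = 0.0221) passed. Without the block the adjusted p of these 4 genes lay between 0.126 and 0.273. Leaving out the control P19 library, and fitting no block, called E2f4 and Rbl1, with 5.69% of all genes called.

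Rbl2, which rose with long knockdown, had log2 changes of -0.08 (SE 0.16) in total knockdown and -0.01 (SE 0.13) in overexpression. E2f7 again followed the batch, at 0.901, 1.54 and 11.5 CPM in the overexpression control and 2.20, 1.97 and 13.7 with overexpression. The G1/S and G2/M lists were uncalled in both comparisons without the block. With it, 18 of 26 and 20 of 20 rose in total knockdown, and 16 of 26 and 20 of 20 in overexpression. Leukocyte markers summed to 18 to 22.0 CPM with overexpression and 11.4 to 11.7 in its control, with Cd14 called higher, and Csf1r passed as higher with the block alone (log2 change 3.01, SE 0.91, adjusted p = 0.0418). Cd68 was at a mean of 0.279 CPM against 0.748 and did not pass. The smooth muscle marker Myl9 was lower (log2 change -1.30, SE 0.22, adjusted p = 0.0193), and Cald1 passed as lower with the block alone (-0.30, SE 0.076, adjusted p = 0.0199). The part of these markers in the results was not tested.

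**Figure D3:**
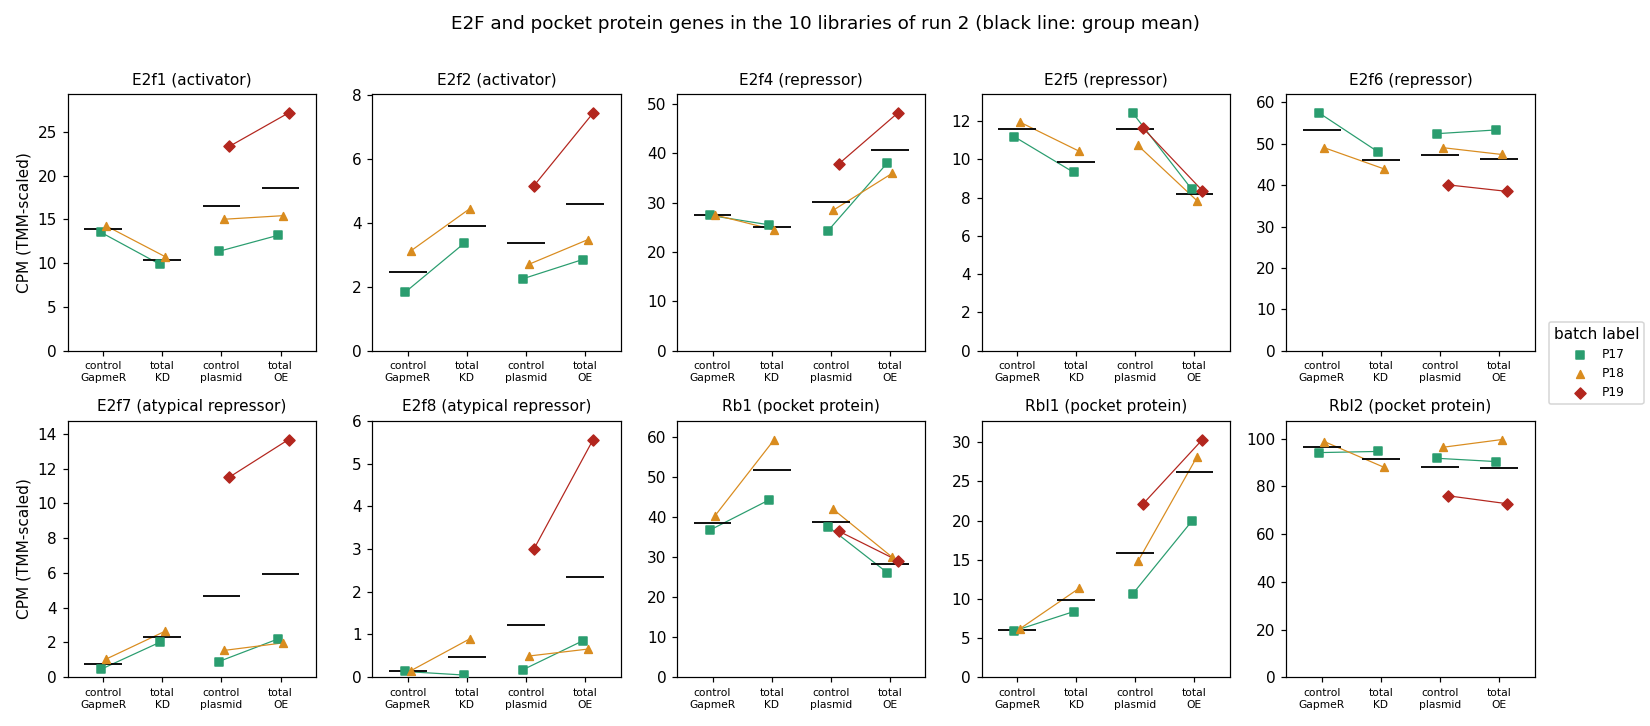
CPM (linear axis from 0) of the 10 genes in the 10 libraries of run 2, with thin lines joining libraries of the same batch label in a control and its treated group and a black line at the group mean. The P19 libraries stand far above the others for E2f7, at 11.5 and 13.7, and E2f8.

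Activators were then set against canonical repressors in each library, as the mean log2(CPM + 0.5) of E2f1 and E2f2 minus that of E2f4, E2f5 and E2f6. This index compares CPM, which does not correct for gene length, so its differences between libraries carry the information and its sign does not. It is described without a test, since it averages chosen genes. The index was -1.39, -1.34, -1.34 and -1.40 in untreated controls and -0.35, -0.15, -0.20 and -0.11 with PDGF-BB, a difference of 1.16 between groups that did not overlap. Angiotensin II in control cells gave -1.54 to -1.10, which spans the untreated values.

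With long knockdown the index was -2.44, -2.42, -2.36 and -1.38 untreated and -2.32, -2.42, -2.33 and -1.16 with angiotensin II. Differences from the controls were -0.78 in both settings. In batches P16 to P18 the knockdown values lay below every control value, and in P19 they were within the control range. There they were slightly above the P19 controls, at -1.38 against -1.40 untreated and -1.16 against -1.19 with angiotensin II. In run 2 the index was -2.22 and -1.82 in the GapmeR control, -1.87 and -1.63 in total knockdown, -2.17, -1.84 and -1.20 in the overexpression control, and -1.97, -1.62 and -0.79 in overexpression. Within each of those groups P17 was lowest and P19, where present, highest, and the groups overlapped. The differences between group means were 0.27 for total knockdown and 0.28 for overexpression. Within batches, the libraries labelled total knockdown were above their controls by 0.35 and 0.20. Overexpression was above its control by 0.20, 0.22 and 0.41, so the difference had 1 direction in each pair of both comparisons. Leaving out single libraries, which breaks a pair, gave differences of group means from 0.075 (without the GapmeR control of P17) to 0.47 for total knockdown, and from -0.057 (without the overexpression library of P19) to 0.55 (without its P19 control) for overexpression.

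Counting E2f7 and E2f8 with the repressors turned the PDGF-BB difference from 1.16 to -0.13 and that of total knockdown from 0.27 to -0.13. The same change took the long knockdown difference from -0.78 to -0.44 untreated and to -0.39 with angiotensin II, and that of overexpression from 0.28 to 0.039. Per length, E2f7 and E2f8 made up 14.6% ± 0.69 of the RNA of the 7 E2F genes with PDGF-BB (SD, n = 4) and 2.00% ± 0.87 without. The canonical repressors went from 79.1% ± 1.9 to 59.2% ± 1.6 and the activators from 18.9% ± 1.0 to 26.2% ± 1.3. The activator share was 13.7% ± 4.1 in untreated long knockdown cells, with 19.8% in its P19 library.

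**Figure D4:**
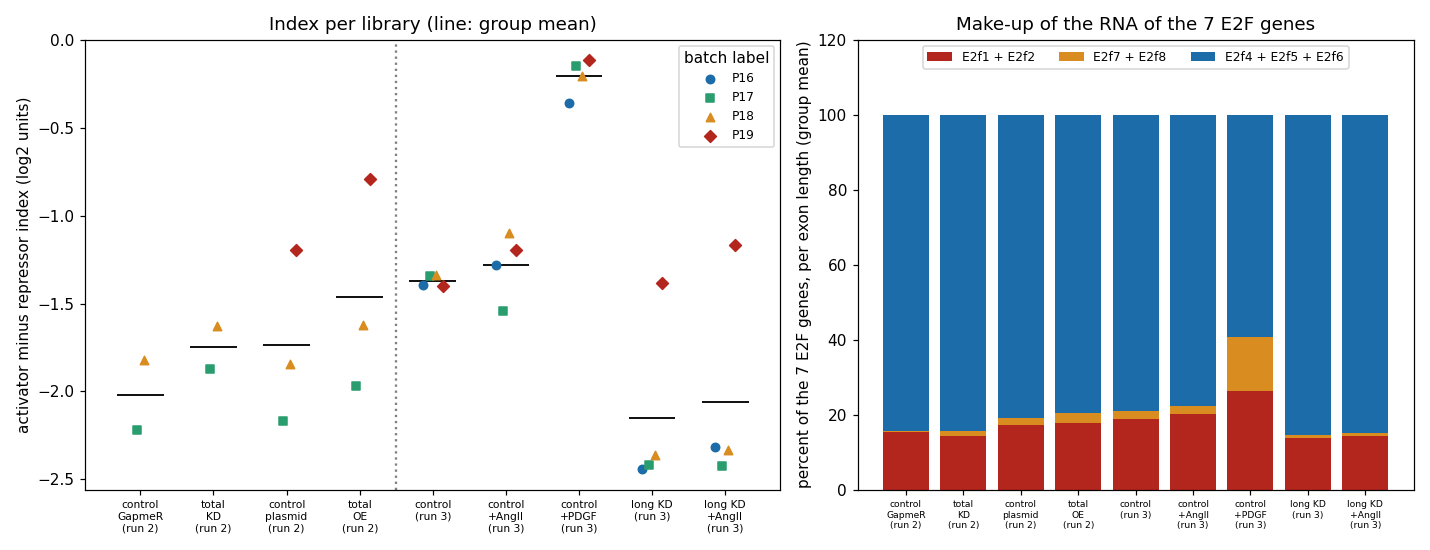
Left, the activator minus repressor index in log2 units for each of the 30 libraries by group, with the batch label as colour and shape and a line at the group mean (KD, knockdown; OE, overexpression). Right, the share in percent of activators, atypical repressors and canonical repressors in the per-length sum of the 7 E2F genes, as group means. The PDGF-BB libraries have the highest index (-0.35 to -0.11) and the largest share of E2f7 and E2f8 (14.6%).

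For 3 members, the other genes with the most similar pattern were named by the Pearson correlation of log2 values over the 20 libraries of run 3, as a description. These libraries share batches and the large PDGF-BB difference, so the value over the 16 libraries without PDGF-BB is given beside it. Those 16 still hold the long knockdown difference, by which Rbl2 separates them. The part of that difference in these values was not tested. For E2f8 the highest was Esco2 (0.991, and 0.962 without PDGF-BB), a cohesin acetyltransferase gene of S phase, and Diaph3 was close (0.989 and 0.951). For E2f1 they were Cltb (0.984 and 0.955), Tnfrsf12a (0.983 and 0.952) and the mitotic kinesin gene Kif11 (0.982 and 0.958). For Rbl2 they were Ttc3 (0.983 and 0.989), Ppp3ca (0.979 and 0.971) and Sesn1 (0.978 and 0.973). Over the 10 libraries of run 2, Esco2 gave 0.934 with E2f8, while Ttc3 gave 0.709, Sesn1 0.350 and Ppp3ca -0.0751 with Rbl2.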

How the data were processed

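Bulk RNA of 30 libraries was sequenced. The authors deposited 1 merged table of RSEM expected counts for each gene, which need not be whole. The submitters' processing notes list STAR 2.7.11b, RSEM 1.3.1 and the builds GRCm39 and mm10, with no role for each; gene annotation and strandedness are not given in the sources used here. Expected counts were rounded. Symbols for 51486 of 78334 identifiers, with 98.7% of counts, and exon lengths came from GENCODE M21 (GRCm38). Genes were kept by filterByExpr (minimum count 10, minimum total 15), scaled by TMM, and tested in each run by edgeR 4.0.16's quasi-likelihood test over all groups, with Benjamini-Hochberg adjustment at 0.05 (R 4.3.3). CPM is TMM-scaled. The scripts were tested on simulated counts.

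Libraries were grouped by the library names in the labels. Libraries of the same batch label deviated together: the mean correlation of deviations from group means was 0.230 in run 2 and 0.197 in run 3, against -0.121 and -0.0606 for other pairs. The batch was therefore also fitted as a block. Other alternatives were DESeq2 1.42.0, its size factors (RLE), no filter, a mean CPM of 1, the compared groups alone, leaving out batch P19 or single libraries, and other forms of the index. The fit with a block and without P19 was chosen after seeing the data.

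Genes outside the families were named from lists of partners, kinases, targets and cell markers, and similar genes by the 3 highest correlations. One DP and MuvB gene, Lin54, had no match, and 1 result by that rule is not reported here. Members and lists were chosen with earlier results of these data known. At 15771489 counts or more a library, 3 counts are the floor used.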

Additional observations from a re-analysis of the deposited data

Results flagged for a closer look

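In groups of 4 libraries, each member and the index were checked for a single library far from the others, by the gap to the nearest library over the whole range against Dixon's 95% critical value; chance marks about 1 in 20 groups, and 55 were checked. The marked values all belong to P19, replicate 4, of the long knockdown groups. E2f2 was at 4.48 CPM with angiotensin II and 3.77 untreated, far above the other 3 libraries of each group. E2f7 stood apart with angiotensin II, at 3.99 CPM. E2f8 stood apart in both, at 1.05 CPM with angiotensin II and 1.27 untreated. The index of activators minus canonical repressors was -1.16 and -1.38 in those libraries, above the other 3. The cause was not tested.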

How the results depend on the processing

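All 7 rises with PDGF-BB passed under each of the 16 alternatives, and Rbl2 under 15; E2f2, E2f6 and Rbl2 passed in both long knockdown comparisons under all 16. Elsewhere the number of members called moved. For untreated long knockdown it was 3, and 5 with the replicate block, 7 without batch P19, 8 with both, and 3 to 5 on leaving out single libraries. With angiotensin II it was 5, and 3 with no filter or the compared groups alone, 8 without P19, 8 with block and without P19, and 3 to 8 with single libraries left out (8 without the knockdown P19 library). For total knockdown it was 0, and 1 (E2f7) without a filter and 3 with the block. For overexpression it was 0, and 1 (Rbl1) without a filter, 4 with the block, 3 with the block and without P19, and 0 to 2 on leaving out single libraries. With E2f4 to E2f8 as repressors the index difference was -0.13 for PDGF-BB and -0.13 for total knockdown. The cause was not tested.

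Some log2 changes of members that were not called turned sign. Without P19, with and without the block, Rbl2 in overexpression was 0.0145 and 0.0153 and E2f5 in knockdown with angiotensin II 0.0117 and 0.00975. On leaving out single libraries, log2 changes in overexpression ran from -0.22 to 0.50 for E2f1, -0.0972 to 0.89 for E2f2, -0.14 to 0.0874 for E2f6, -1.15 to 2.30 for E2f7, -0.68 to 2.82 for E2f8 and -0.11 to 0.10 for Rbl2. They ran from -1.38 to 2.61 for E2f8 in total knockdown, from -0.0893 to 0.0625 for E2f5 in knockdown with angiotensin II and from -0.0137 to 0.20 for Rbl1 in untreated knockdown. The E2f8 values in total knockdown rest on 1 to 20 reads a library, so no fold is drawn from them. Where a group was left with 1 library, that library was assumed to vary like the other groups.

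Genes called in total knockdown numbered 317, and 661 by DESeq2, 1325 with no filter, 190 at a mean CPM of 1, 1079 with the compared groups alone, 2209 with the block, 1041 without P19, and 4 to 188 on leaving out single libraries. In overexpression they numbered 253, and 732, 1363, 66 (compared groups alone), 2721 (block), 844 (without P19), 2587 (block without P19) and 86 to 867. In untreated long knockdown they numbered 3783, and 6126 with the block, 6062 without P19 and 6398 with both; with angiotensin II 4033, 6238 and 6381 with both. For angiotensin II in control cells and the interaction, DESeq2 called 1 and 2 and the compared groups alone 1 and 1, against 0.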
